A study of Homo sapiens with 12 samples.

Results

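The NF-kappaB factors and the genes that feed back on them were followed in A375 cells, an established human melanoma line, with and without the kinase gene MAPKAPK2 and with and without the BET inhibitor JQ1. The genes were the 5 subunits of the transcription factor (NFKB1, NFKB2, RELA, RELB and REL), 3 inhibitors or co-regulators of the IkappaB family (NFKBIA, NFKBIE and NFKBIZ) and 2 feedback enzymes (TNFAIP3 and BIRC3). They were taken by symbol from a count table of 56609 gene symbols, and all 10 were among the 21698 genes with enough reads to be tested.

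NF-kappaB is a family of dimers that IkappaB proteins hold inactive in the cytoplasm. Signals from tumour necrosis factor, interleukin-1 or Toll-like receptors activate the IkappaB kinase (IKK), which marks IkappaB for destruction and frees the dimer to enter the nucleus. Among the genes the dimers switch on are those of their own inhibitors, so that the response limits itself, and cytokine genes that many melanomas express. JQ1 keeps BET proteins, readers of acetylated histones, off chromatin. MK2, the product of MAPKAPK2, is a stress kinase known to act on proteins that bind AU-rich elements in the tails of cytokine mRNAs.

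RNA was sequenced in 4 groups of 3 libraries. Wild-type A375 cells and A375 cells with a CRISPR/Cas9 knockout of MAPKAPK2 were each given JQ1 at 500 nM, or DMSO, the solvent control, for 48 h. The control samples are titled untreated, while their treatment label reads DMSO. Whether the knockout line was 1 clone or a pool, and whether replicates came from separate cultures, is not given in the sources used here, so p-values measure the spread between these libraries, which may be technical. Below, a change by the knockout means a difference between the knockout and wild-type cells. Loss of MAPKAPK2 and any other difference between these cells cannot be told apart. No stimulus of NF-kappaB is named in the labels, so the levels are those of cells in ordinary culture medium.

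Libraries held between 25316565 and 34594025 counts. MAPKAPK2 was at 87.9 to 92.1 CPM (counts per 1000000 of the library, scaled for its composition) in wild-type DMSO libraries and 112 to 119.7 CPM in wild-type JQ1 libraries, against 11.1 to 13.2 and 12.6 to 15.7 CPM in the knockout, which matched the labels in all 12. The third knockout JQ1 library stood apart: its chi-square per gene against the other 2 of its group was 25.5 and 26.8, while all other replicate pairs lay between 3.32 and 7.58. For the 10 genes, each call that changed without it is given both ways. The other pathway genes are given with it unless stated. Of 7 melanocyte-lineage markers, SOX10 and MITF were expressed and PMEL, MLANA, TYR, TYRP1 and DCT averaged under 1 CPM. In the order wild-type DMSO, wild-type JQ1, knockout DMSO and knockout JQ1, SOX10 averaged 437, 563, 438 and 563 CPM and MITF 43.1, 39.2, 28.8 and 30.5 CPM. In the same order, the summed level of 4 markers of dedifferentiated melanoma (AXL, EGFR, NGFR and SOX9) was 273 to 286, 462 to 533, 201 to 234 and 390.4 to 470.2 CPM, of which AXL averaged 248, 469, 198 and 398 CPM. The summed level of 5 fibroblast markers was 15.7 to 17.4 CPM in wild-type DMSO, 4.76 to 5.78 in wild-type JQ1, 12.9 to 14.4 in knockout DMSO and 3.29 to 4.02 in knockout JQ1, mostly from PDGFRB and LUM. The summed level of 4 immune markers was 14.7 to 17.1, 14.2 to 16.4, 10.4 to 16.7 and 8.97 to 10.01 CPM in the same order. CD68 made up most of the immune sum, and PTPRC, CD3E and CD14 averaged under 1 CPM. The summed level of 4 keratinocyte or epithelial markers was 1.49 to 2.14, 0.532 to 0.879, 1.05 to 1.57 and 0.0406 to 0.317 CPM; KRT14 made up most of it, KRT5 and EPCAM averaged under 1 CPM and CDH1 was at 0 in all libraries. The fibroblast and epithelial sums were thus lower and the dedifferentiation sum higher with JQ1, although NGFR was lower with JQ1 in wild type. The fibroblast sum was lower in the knockout under both treatments without overlap, and the immune sum was lowest in knockout JQ1. The results below moved with the same groups, and the part of these markers in them was not tested. In bulk RNA, fewer cells of a type and less RNA per cell cannot be told apart.

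The feedback enzymes passed the test in more of the 4 comparisons than any subunit did. TNFAIP3 mRNA was lowered by JQ1 in both genotypes and by the knockout under both treatments, to levels 1.87-fold to 2.11-fold lower, and was lowest where both were present. BIRC3 was lowered by the knockout under both treatments and by JQ1 in knockout cells. The subunits NFKB1, NFKB2 and RELB passed the test in none of the 4 comparisons. No subunit passed in the comparisons of knockout with wild type by edgeR or DESeq2, although 1 (REL, in JQ1) had an unadjusted p under 0.05. NFKB1, NFKB2 and REL passed further comparisons in some alternative settings given below, and missing the threshold does not show an unchanged level. NFKBIE, an inhibitor, rose with JQ1 in both genotypes.

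Differences were tested by the quasi-likelihood test of edgeR on all 21698 genes, with p-values adjusted over them (Benjamini-Hochberg) and a threshold of 0.05. Each adjusted p below comes from that test, and each change is a log2 fold change ± its standard error (SE). Each JQ1 comparison shares 1 group of libraries with each knockout comparison, so their values are set side by side and not counted as separate evidence. JQ1 changed 3 of the 10 genes in wild-type cells, where 33.1% of all tested genes passed (16.9% higher, 16.2% lower), and 4 of 10 in knockout cells, where 34.4% passed (16.7% higher, 17.8% lower). The share of the 10 genes that responded to JQ1 was thus near that of genes in general. The knockout changed 2 of 10 in DMSO, both lower, where 7.92% of all genes passed (3.47% higher, 4.44% lower), and the same 2 of 10 in JQ1, where 8.57% passed (3.01% higher, 5.56% lower). The 10 genes were chosen with earlier results of these data known, so these shares are descriptions.

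**Figure D1:**
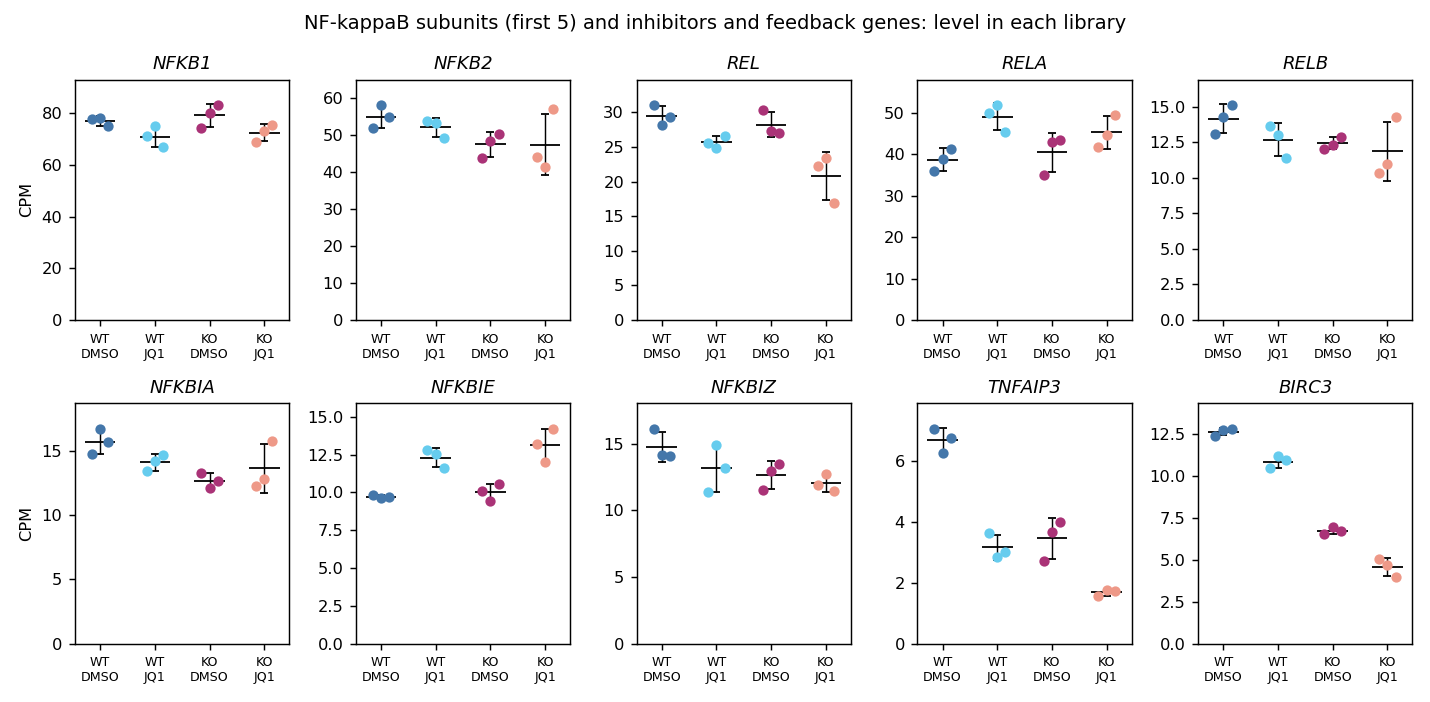
Level of each of the 10 genes in every library (points, in CPM on a linear axis from 0), with the mean (line) and SD (bars) of the 3 libraries of each group; WT is wild type and KO the MAPKAPK2 knockout. TNFAIP3 runs from 6.27 to 7.06 CPM in wild-type DMSO down to 1.56 to 1.79 CPM in knockout JQ1, while NFKB1 stays between 66.9 and 83.0 CPM throughout.

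The promoters of these genes are shown first, because several are textbook targets of the factor itself. The 250 bases before each annotated start, from RefSeq on GRCh38.p14, were searched on both strands for the kappaB consensus, the 10-base site that the dimers bind. Of the 10 genes, 8 had an entry, and 7 of those 8 held at least 1 match in a window; RELA held none, and RELB and NFKBIE had no entry. Among all 35116 windows of that length 9.96% held a match and 0.79% held 2 or more that did not overlap; 15.3% of the 11947 tested genes with an entry held a match. A match is a description of letters and not a measured binding site. In the lines below, 30 bases around the match are printed in the direction of the gene, with the matched bases in capitals.
TNFAIP3, chr6:137867188-137867217, plus strand: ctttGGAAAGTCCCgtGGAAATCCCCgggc
NFKBIA, chr14:35404811-35404840, minus strand: tgactggcttGGAAATTCCCcgagcctgac
NFKBIZ, chr3:101827757-101827786, plus strand: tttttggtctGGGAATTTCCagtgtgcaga
NFKB1, chr4:102501300-102501329, plus strand: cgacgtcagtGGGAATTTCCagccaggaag
REL, chr2:60881518-60881547, plus strand: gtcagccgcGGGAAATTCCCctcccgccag
NFKB2, chr10:102394462-102394491, plus strand: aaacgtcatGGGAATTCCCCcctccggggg
BIRC3 held 2 matches, and because it is 1 of the 2 genes that the knockout changed, its whole upstream stretch of 216 bases is printed, from chr11:102317234-102317449 on the plus strand.
BIRC3: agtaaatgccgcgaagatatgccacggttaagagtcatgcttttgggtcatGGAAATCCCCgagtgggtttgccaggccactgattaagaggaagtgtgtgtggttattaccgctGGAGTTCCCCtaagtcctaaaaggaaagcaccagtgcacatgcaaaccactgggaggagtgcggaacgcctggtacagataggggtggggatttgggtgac
TNFAIP3 and BIRC3, which fell in the knockout, each held 2 matches that do not overlap, as did NFKB2 in a window. Whether the number of matches goes with the changes was not tested. The TNFAIP3 and NFKB2 matches, and most of the REL stretch, lie inside the gene as GENCODE release 29 draws it.

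NFKB1 encodes p105, which is cut to the DNA-binding subunit p50; the gene lies on chromosome 4 from 102501329 to 102617302 (GRCh38, GENCODE release 29, as for the positions that follow). Its level was 77.9, 78.1 and 74.9 CPM in wild-type DMSO and 71.2, 74.9 and 66.9 in wild-type JQ1. In the knockout it was 74.3, 80.2 and 83.0 CPM in DMSO and 68.8, 73.3 and 75.3 in JQ1. The JQ1 libraries lay slightly below their controls, with overlap in the knockout, and the genotypes overlapped under both treatments. The change with JQ1 was −0.12 ± 0.06 in wild type (adjusted p = 0.176) and −0.13 ± 0.06 in knockout (adjusted p = 0.14). With scaling by library totals both JQ1 changes of NFKB1 passed (−0.25, adjusted p = 0.00725, and −0.24, adjusted p = 0.00767). The knockout differed from wild type by 0.04 ± 0.06 in DMSO and 0.03 ± 0.06 in JQ1.

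RELA encodes p65, the subunit that carries the main activation domain of the classical dimer (chromosome 11, 65653596 to 65663094, minus strand). It was at 35.9, 39.0 and 41.3 CPM in wild-type DMSO and at 49.97, 51.8 and 45.5 CPM in wild-type JQ1, with every JQ1 library above every control. This rise of 0.34 ± 0.09 (log2) passed the test (adjusted p = 0.0106). It no longer passed when the first wild-type DMSO library was left out (adjusted p = 0.0506) or when libraries were scaled by their totals alone (0.21, adjusted p = 0.0842). In knockout cells RELA was at 35.1, 42.9 and 43.5 CPM in DMSO and at 41.7, 44.8 and 49.5 CPM in JQ1. These groups overlapped, and the change of 0.16 ± 0.09 did not pass (adjusted p = 0.2).

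REL encodes c-Rel, the subunit known best from lymphocytes (chromosome 2, 60881521 to 60931610). It was at 31.0, 28.2 and 29.3 CPM in wild-type DMSO and 25.6, 24.8 and 26.7 CPM in wild-type JQ1. In knockout DMSO libraries it was at 30.3, 27.3 and 27.1 CPM, and in knockout JQ1 at 22.2, 23.4 and 16.9 CPM. JQ1 libraries were below their controls without overlap in both genotypes, and the lowest value came from the third knockout JQ1 library. REL fell by 0.44 ± 0.10 with JQ1 in knockout cells (adjusted p = 0.00358), and by 0.31 without that library (adjusted p = 0.00471). In wild type the change was −0.20 ± 0.10 (adjusted p = 0.147), and it passed when the third knockout JQ1 library was left out of the model (adjusted p = 0.0243). The test of the difference between these responses gave −0.24 ± 0.14 (adjusted p = 0.676), so REL was not shown to respond differently in the 2 genotypes.

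NFKB2 and RELB encode p100 and RelB, which form the dimer of the alternative pathway. NFKB2 (chromosome 10, 102394110 to 102402529) was at 52.0, 58.0 and 54.9 CPM in wild-type DMSO, 53.8, 53.4 and 49.1 in wild-type JQ1, 43.7, 48.4 and 50.2 in knockout DMSO, and 43.9, 41.3 and 57.0 in knockout JQ1. Knockout libraries in DMSO were all below wild type, by −0.21 ± 0.10 (adjusted p = 0.266). The knockout JQ1 group held both the lowest and one of the highest NFKB2 values, the latter in the third library; without that library NFKB2 passed in the knockout comparison under JQ1 (−0.29, adjusted p = 0.0192) and in DMSO (−0.21, adjusted p = 0.042). RELB (chromosome 19, 45001430 to 45038198) lay between 10.3 and 15.1 CPM in all libraries. Its changes ran from −0.19 to −0.06 over the 4 comparisons, and none passed.

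NFKBIA encodes IkappaB-alpha, the inhibitor that is made anew after each burst of NF-kappaB activity (chromosome 14, 35401511 to 35404749, minus strand). It was at 14.8, 16.7 and 15.7 CPM in wild-type DMSO and 13.3, 12.1 and 12.6 CPM in knockout DMSO, with no overlap. The difference of −0.31 ± 0.10 did not pass (adjusted p = 0.0777). It passed without the third knockout JQ1 library (adjusted p = 0.0165), with only the 2 groups compared in the model (adjusted p = 0.0347) and with scaling by library totals (adjusted p = 0.0361). Under JQ1 it was at 13.4, 14.2 and 14.7 CPM in wild type and 12.3, 12.8 and 15.8 CPM in knockout, where the genotypes overlapped and the difference was −0.05 ± 0.10. JQ1 changed it by −0.15 ± 0.10 in wild type and 0.11 ± 0.10 in knockout, neither past the threshold.

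NFKBIE encodes IkappaB-epsilon, a slower-acting inhibitor that favours dimers with RELA or REL (chromosome 6, 44258166 to 44265788, minus strand). It was at 9.84, 9.63 and 9.70 CPM in wild-type DMSO and 12.8, 12.5 and 11.6 CPM in wild-type JQ1. In the knockout it was at 10.1, 9.44 and 10.53 CPM in DMSO and 13.2, 12.01 and 14.2 CPM in JQ1. Every JQ1 library was above every DMSO library of either genotype. NFKBIE rose by 0.34 ± 0.09 in wild type (adjusted p = 0.00892) and by 0.39 ± 0.09 in knockout (adjusted p = 0.00329). The wild-type rise was 0.21 and did not pass with scaling by library totals (adjusted p = 0.0668), while the knockout rise passed in all 20 alternative settings. The knockout itself made a difference of 0.04 ± 0.09 in DMSO and 0.10 ± 0.09 in JQ1, with overlapping libraries.

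NFKBIZ encodes IkappaB-zeta, a nuclear protein that works with NF-kappaB at a subset of its targets (chromosome 3, 101827991 to 101861022). It ran from 14.0 to 16.1 CPM in wild-type DMSO, 11.4 to 14.9 in wild-type JQ1, 11.5 to 13.5 in knockout DMSO and 11.5 to 12.7 in knockout JQ1. Wild-type DMSO was the highest group, and knockout DMSO libraries lay below it without overlap. None of the 4 changes passed; the largest in size was −0.22 ± 0.11 for the knockout in DMSO (adjusted p = 0.264). With scaling by library totals the JQ1 change in wild type passed (−0.30, adjusted p = 0.0477).

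TNFAIP3 encodes A20, an enzyme that edits ubiquitin chains on receptor complexes and thereby shuts off IKK (chromosome 6, 137867188 to 137883312). It was at 7.06, 6.27 and 6.76 CPM in wild-type DMSO and at 3.64, 2.86 and 3.02 CPM in wild-type JQ1. In the knockout it was at 2.73, 3.67 and 4.002 CPM in DMSO and at 1.56, 1.79 and 1.74 CPM in JQ1. Wild-type DMSO lay above all other groups and knockout JQ1 below all others, while wild-type JQ1 and knockout DMSO overlapped.

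The JQ1 change of TNFAIP3 was −1.08 ± 0.15 in wild type, a level 2.11-fold lower (adjusted p = 6.1e-05), and −1.03 ± 0.17 in knockout, 2.04-fold lower (adjusted p = 0.00024). The knockout change was −0.95 ± 0.15 in DMSO (adjusted p = 0.000815) and −0.90 ± 0.17 in JQ1 (adjusted p = 0.0032). The difference between the JQ1 responses of the 2 genotypes was 0.05 ± 0.23 (adjusted p = 0.978), with an interval of 2 SE from −0.41 to 0.51. All 4 TNFAIP3 calls held in each of the 20 alternative settings. Without the third knockout JQ1 library, the changes that use that group were −1.05 and −0.93. TNFAIP3 was the least abundant of the 10 genes, with 41 to 246 counts per library.

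BIRC3 encodes cIAP2, a ubiquitin ligase that is recruited by TRAF proteins, blocks cell death downstream of the tumour necrosis factor receptor and restrains the kinase of the alternative pathway (chromosome 11, 102317450 to 102339403). It was at 12.4, 12.7 and 12.8 CPM in wild-type DMSO and at 6.51, 6.97 and 6.74 CPM in knockout DMSO. With JQ1 it was at 10.46, 11.2 and 10.9 CPM in wild type and at 5.03, 4.67 and 3.96 CPM in knockout. The 4 groups did not overlap, and both knockout groups lay below both wild-type groups.

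The knockout lowered BIRC3 by 0.91 ± 0.10 in DMSO, 1.88-fold (adjusted p = 2.71e-05), and the change in JQ1 was −1.26 ± 0.10, or 2.39-fold lower (adjusted p = 1.71e-06). JQ1 lowered it in knockout cells by 0.57 ± 0.10 (adjusted p = 0.000606). In wild type the JQ1 change was −0.22 ± 0.09 (adjusted p = 0.0865), which passed without the third knockout JQ1 library (adjusted p = 0.0428) and with scaling by library totals (adjusted p = 0.0122). The BIRC3 responses to JQ1 differed by −0.35 ± 0.14 between genotypes (unadjusted p = 0.0256, adjusted p = 0.512), with an interval of 2 SE from −0.63 to −0.07. Without the third knockout JQ1 library the BIRC3 difference was −0.25, the change with JQ1 in knockout cells −0.47 and the knockout change in JQ1 −1.16.

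**Figure D2:**
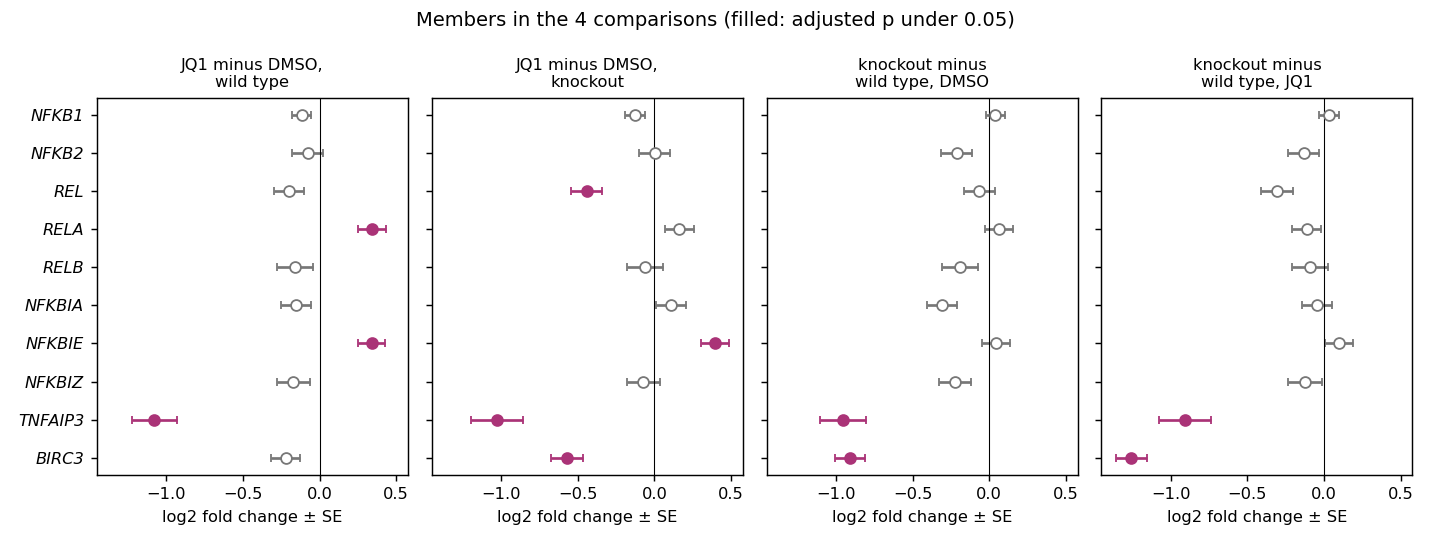
log2 fold change ± SE of the 10 genes in the 4 comparisons, from edgeR's quasi-likelihood fit; filled points have an adjusted p under 0.05 and the vertical line marks no change. TNFAIP3 is filled in all 4 panels, BIRC3 in 3, NFKBIE in both JQ1 panels, and NFKB1, NFKB2, RELB, NFKBIA and NFKBIZ in none.

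The difference between the JQ1 responses of knockout and wild-type cells, tested as an interaction, passed for 0 of the 10 genes, where 0.134% of all genes passed. BIRC3 alone had an unadjusted p under 0.05 with edgeR, and DESeq2 also called 0 of 10. The intervals of 2 SE were widest for TNFAIP3 (−0.41 to 0.51) and RELB (−0.23 to 0.43) and narrowest for NFKB1 (−0.19 to 0.17). A difference that misses the threshold in 3 libraries a group does not show that the responses were alike.

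Levels can be compared between genes only per length, and were divided by the kilobases of annotated exon. In wild-type DMSO the order ran from NFKB2 (14.9 ± 0.812 CPM per kb, SD) and NFKB1 (13.9 ± 0.324) through RELA (11.4 ± 0.799), NFKBIA (8.26 ± 0.507), RELB (6.15 ± 0.446), NFKBIE (3.77 ± 0.0402), NFKBIZ (3.52 ± 0.275), REL (2.62 ± 0.124) and BIRC3 (1.83 ± 0.0306) to TNFAIP3 (1.41 ± 0.0849). NFKB2 and NFKB1 overlapped, as did NFKBIE and NFKBIZ, and the other neighbours did not. In knockout JQ1 the level of RELA was 13.4 ± 1.16, NFKB1 13.1 ± 0.600 and NFKB2 12.9 ± 2.27 CPM per kb, which overlapped. BIRC3, at 0.658 ± 0.0787, and TNFAIP3, at 0.358 ± 0.0251 CPM per kb, were the lowest 2 in every group.

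For each gene, the gene with the most similar pattern over the 12 libraries was found by Pearson's r of log2 CPM, among the 11251 genes that averaged 5 CPM or more. These are descriptions: the libraries share their groups, depth and scaling. BIRC3 was most like SLITRK4 (r = 0.988), NFKBIE like CDCA4 (0.985), REL like PKN2 (0.984), TNFAIP3 like DNAH2 (0.976) and RELA like AP1M1 (0.969). The likeness was less for RELB with COL6A1 (0.955), NFKB2 with MICAL3 (0.946), NFKB1 with TCF3 (0.930), NFKBIZ with TLK1 (0.843) and NFKBIA with KLF5 (0.823). None of the 10 genes had another of the 10 as its nearest.

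The 3′ untranslated regions were searched for the letters ATTTA and TATTTAT, the core and the longer form of AU-rich elements, on the sense strand of the GENCODE transcript with the longest coding sequence. TATTTAT was found 4 times in REL, 2 times each in TNFAIP3, BIRC3 and NFKBIA, and in none of the other 6 genes; each TATTTAT holds an ATTTA. Of 14149 tested genes with a coding transcript, 31.4% held it. It was held by 18.6% of genes with a 3′ untranslated region within 25% of the 632 bases of BIRC3, by 14.4% for NFKBIA, 42.5% for TNFAIP3 and 84.1% for REL. One match is printed for TNFAIP3, which passed in the knockout comparisons, and for NFKBIA, which did not pass, in the direction of the mRNA, from GRCh38.
TNFAIP3, chr6:137882300-137882324, plus strand: aattcacttTATTTATtttattaca
NFKBIA, chr14:35401701-35401725, minus strand: cacattttaTATTTATtgtgcttcg
REL held the most copies of the longer motif, and its difference between genotypes was −0.07 ± 0.10 in DMSO and −0.31 ± 0.10 in JQ1 (adjusted p = 0.0849). The REL difference in JQ1 passed without a filter on low counts (adjusted p = 0.0276) and without the second knockout JQ1 library (adjusted p = 0.0396). Whether the motif and the knockout differences are related was not tested.

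Other genes of the pathway were read from lists written for these genes. The lists were chosen with earlier results of these data known, so the shares that passed are descriptions. The remaining IkappaB family members BCL3 and NFKBIB rose with JQ1 in both genotypes, and NFKBID did not pass. BCL3, a nuclear co-activator with p50 and p52 dimers, went from a mean of 10.3 to 17.2 CPM in wild type (0.75 ± 0.15, adjusted p = 0.00131) and from 11.5 to 19.3 CPM in knockout (0.75 ± 0.15, adjusted p = 0.00113). NFKBIB, IkappaB-beta, rose by 0.46 ± 0.13 in both, although its wild-type call was lost without the second wild-type JQ1 library (adjusted p = 0.074). In the knockout comparisons 0 of the 3 passed by edgeR or DESeq2, and 0 had an unadjusted p under 0.05. By edgeR, 7.92% of all tested genes passed in DMSO and 8.57% in JQ1, so 0 of 3 says little.

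Of 10 IKK and upstream kinase genes, 2 rose and 2 fell with JQ1 in wild type, and 2 rose and 3 fell in knockout. These are 40% and 50% of the list, against 33.1% and 34.4% of all tested genes. DESeq2 called 2 higher and 1 lower in wild type, and 2 higher and 3 lower in knockout. The wild-type fall of TAB3, an adaptor of the kinase TAK1, was lost in 13 of 20 alternative settings, and the wild-type rise of MAP3K14 in 7. IKBKG, the regulatory subunit NEMO, rose by 0.64 ± 0.10 and 0.63 ± 0.10, and IKBKE, an IKK-related kinase, fell by 0.61 ± 0.13 and 0.70 ± 0.13 in wild type and knockout. The knockout changed 1 of the 10 under each treatment, or 10%, near the 7.92% in DMSO and 8.57% in JQ1 of all tested genes. TAB3 was higher in DMSO (0.48 ± 0.08, adjusted p = 0.000896). TAB2 was lower in JQ1 (−0.33 ± 0.10, adjusted p = 0.0455), a call lost in 14 of 20 alternative settings. Of 11 genes that write, read or edit ubiquitin chains, 3 rose with JQ1 and 0 fell in each genotype, by 0.20 to 0.38; that is 27.3% of the list, below the 33.1% and 34.4% of all tested genes. Among them were TNIP1 and TNIP2, partners of A20. The wild-type calls of TNIP1, TNIP2 and SHARPIN were lost in 6 to 8 of 20 alternative settings, and of the JQ1 calls in knockout cells that of UBE2N was lost in 8 and that of OTULIN in 2. The knockout changed 0 of the 11 under either treatment by edgeR or DESeq2, and 1 had an unadjusted p under 0.05 in each. Of all tested genes 7.92% and 8.57% passed by edgeR, so 0 of so short a list says little. Without the third knockout JQ1 library, SHARPIN passed as lower in the knockout in JQ1 (adjusted p = 0.00891).

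Of 20 receptor and adaptor genes, 3 rose and 9 fell with JQ1 in wild type, and 3 rose and 8 fell in knockout, which is 60% and 55% of the list against 33.1% and 34.4% of all tested genes. The knockout raised 3 and lowered 5 in DMSO, and raised 1 and lowered 5 in JQ1, which is 40% and 30% against 7.92% and 8.57%. Since the list was chosen with earlier results of these data known, these shares are descriptions. TRAF1, an adaptor of the TRAF family that is itself a known NF-kappaB target, was at 46.9, 51.3 and 51.5 CPM in wild-type DMSO and 22.7, 22.5 and 24.1 CPM in knockout DMSO. With JQ1 it was at 11.9, 14.5 and 10.8 CPM in wild type and 4.15, 4.30 and 5.63 CPM in knockout. The 4 groups did not overlap. The TRAF1 change was −2.01 ± 0.11 with JQ1 in wild type, −2.29 ± 0.13 with JQ1 in knockout, −1.11 ± 0.11 with the knockout in DMSO and −1.39 ± 0.13 with the knockout in JQ1, each with an adjusted p of at most 8.95e-06.

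CD40, a receptor of the tumour necrosis factor family that feeds both pathways, was lower with JQ1 (−1.29 ± 0.20 in wild type, −1.87 ± 0.27 in knockout) and lower in the knockout (−1.63 ± 0.20 in DMSO, −2.21 ± 0.27 in JQ1). Its level was low, from a mean of 4.88 CPM in wild-type DMSO to 0.435 CPM in knockout JQ1. TLR3, the receptor for double-stranded RNA, fell by 3.06 ± 0.19 and 3.22 ± 0.19 with JQ1. It was higher in knockout DMSO than in wild-type DMSO (0.55 ± 0.15, adjusted p = 0.0338), a call lost in 10 of 20 alternative settings. RIPK1 and TRADD, which couple the tumour necrosis factor receptor to IKK, rose with JQ1: RIPK1 by 0.70 ± 0.08 and 0.47 ± 0.08, and TRADD by 0.85 ± 0.13 and 0.98 ± 0.13. IL1RAP, the shared chain of the interleukin-1 receptor, was higher in the knockout by 0.65 ± 0.08 in DMSO and 0.78 ± 0.08 in JQ1.

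Of 27 textbook target genes of NF-kappaB, 22 could be tested; TNF, IL6, VCAM1, PLAU and MMP9 were too low. JQ1 raised 3 and lowered 11 of the 22 in wild type and raised 3 and lowered 8 in knockout. Of the 22, 63.6% and 50% passed, against 33.1% and 34.4% of all tested genes. The knockout raised 0 and lowered 13 in DMSO, and raised 0 and lowered 7 in JQ1, which is 59.1% and 31.8% against 7.92% and 8.57%. DESeq2 likewise raised 0 in DMSO, with 11 lowered, but called 1 gene higher in JQ1, SDC4 (adjusted p = 0.0243). The median change of the 22 was −0.89 with JQ1 in wild type, −0.29 with JQ1 in knockout, −0.50 with the knockout in DMSO and −0.36 with the knockout in JQ1. The medians of all tested genes in the same 4 comparisons were −0.03, −0.00, −0.00 and −0.00. IL1B and CCL2 entered the 22 through wild-type DMSO alone, at 0.496 to 1.02 and 0.935 to 1.31 CPM. In the other groups they were at most 0.186 and 0.157 CPM, so against wild-type DMSO they could only come out lower. BCL2A1 entered through the wild-type groups alone, so its knockout groups could only come out lower against them. The list was chosen with earlier results of these data known, so these shares and medians are descriptions.

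**Figure D3:**
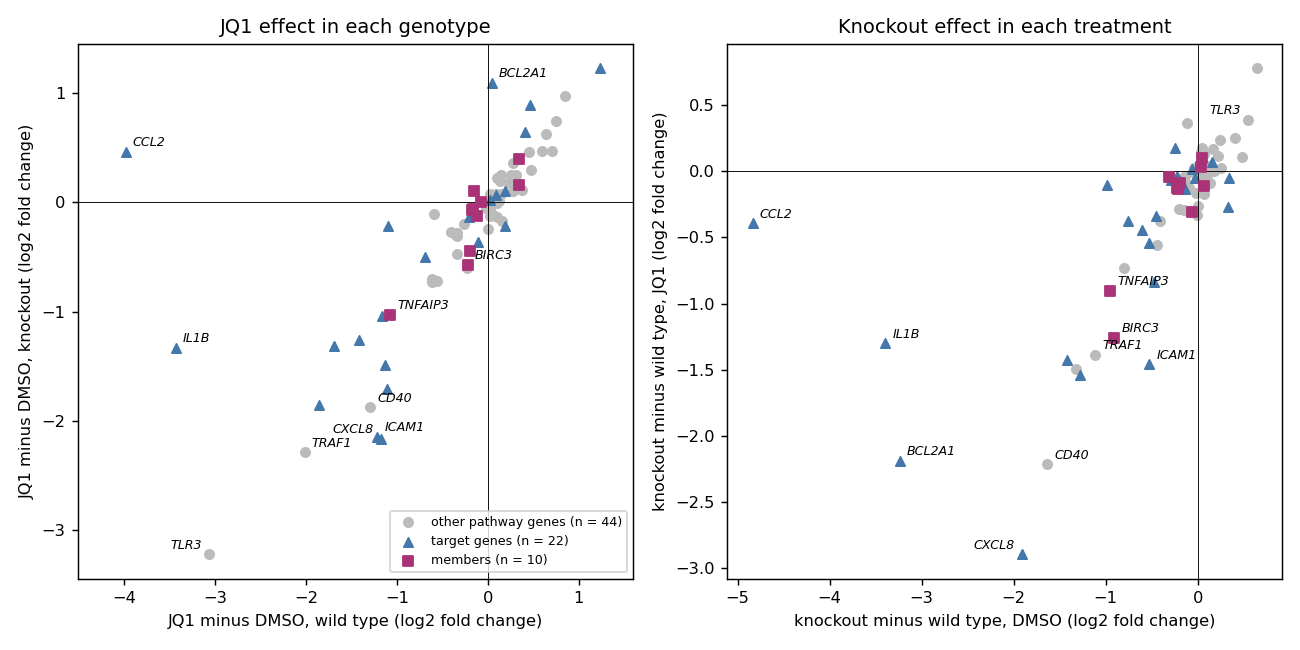
log2 fold changes of the 10 genes (squares), 22 target genes (triangles) and 44 other pathway genes (circles): JQ1 effects in knockout against those in wild type (left), and knockout effects in JQ1 against those in DMSO (right). The axes of each panel share no library, though the panels share all groups; TNFAIP3, BIRC3, TRAF1, CD40, ICAM1 and CXCL8 lie in the lower left of both, and the position of CCL2 rests on few reads, since it was at most 0.157 CPM outside wild-type DMSO.

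CXCL8, the neutrophil attractant interleukin-8, was at 30.04, 29.5 and 33.2 CPM in wild-type DMSO and 12.8, 13.7 and 14.5 CPM in wild-type JQ1. In the knockout it was at 8.78, 7.38 and 8.46 CPM in DMSO and 2.32, 1.99 and 1.27 CPM in JQ1. The groups did not overlap. CXCL8 fell with JQ1 by 1.18 ± 0.12 and 2.16 ± 0.16, and the knockout changes were −1.91 ± 0.13 (adjusted p = 2.35e-07) and −2.90 ± 0.16 (adjusted p = 2.22e-08). CXCL1, a related chemokine, fell by 1.86 ± 0.18 and 1.86 ± 0.23 with JQ1 and changed by −1.42 ± 0.18 and −1.42 ± 0.23 with the knockout.

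ICAM1, the adhesion molecule that binds leukocytes, was at 53.1, 55.4 and 55.0 CPM in wild-type DMSO and 34.5, 38.6 and 40.2 CPM in knockout DMSO. With JQ1 it was at 23.9, 25.4 and 21.2 CPM in wild type and 7.58, 8.20 and 9.75 CPM in knockout. The JQ1 change was −1.21 ± 0.09 in wild type and −2.14 ± 0.10 in knockout. BCL2A1, a relative of BCL2 that protects from cell death and is known in melanoma, was at 1.40 to 1.63 CPM in wild-type DMSO and 0.0687 to 0.211 CPM in knockout DMSO, a change of −3.24 ± 0.34. In JQ1 it was at 1.15 to 1.98 CPM in wild type and 0.285 to 0.406 CPM in knockout, a change of −2.19 ± 0.30. BCL2A1 entered the tested genes through its wild-type libraries alone, at 31 to 67 counts, against 2 to 10 in the knockout. Against wild type it could thus only come out lower, and its knockout changes are descriptions. With JQ1, BCL2A1 did not pass in either genotype (0.04 ± 0.24 and 1.09 ± 0.42).

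**Figure D4:**
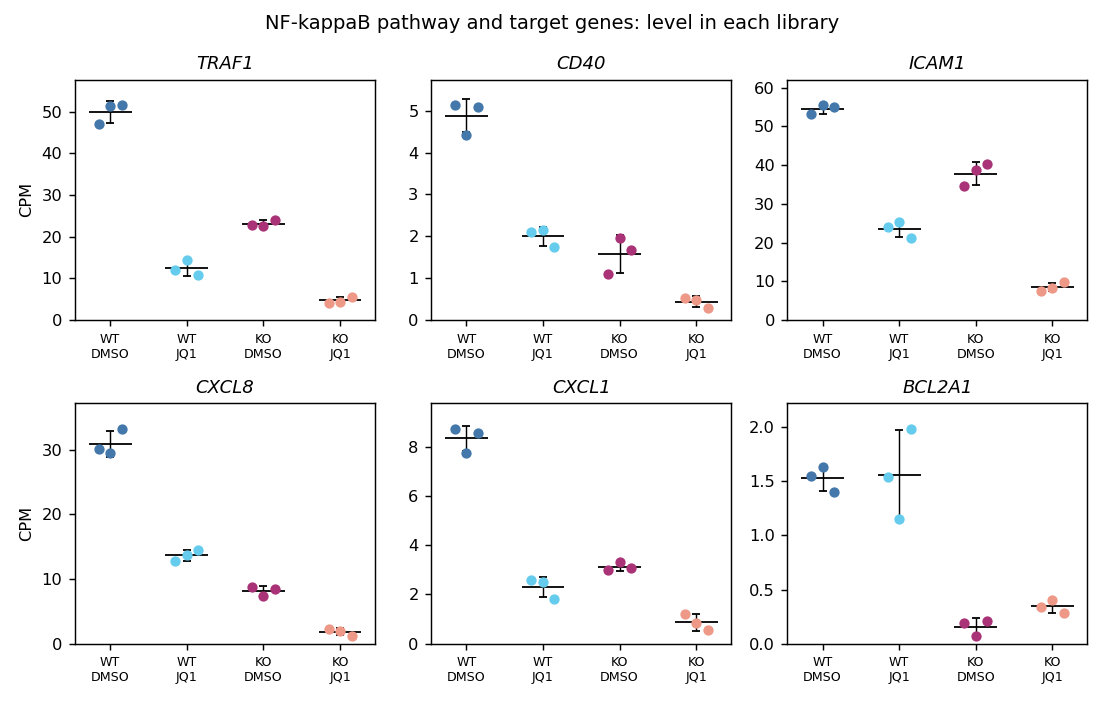
Level in every library (points, in CPM on linear axes from 0) of the adaptor TRAF1, the receptor CD40 and the target genes ICAM1, CXCL8, CXCL1 and BCL2A1, with the mean (line) and SD (bars) of each group of 3. Wild-type DMSO is the highest group for all but BCL2A1, whose wild-type groups overlap, and knockout JQ1 is the lowest for all but BCL2A1, where knockout DMSO is.

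Not all targets were lowered by JQ1. GADD45B, a stress-response gene, rose by 1.24 ± 0.12 and 1.23 ± 0.12 with JQ1 and was lower in the knockout by 0.53 ± 0.13 in DMSO and 0.54 ± 0.11 in JQ1; the DMSO call was lost in 5 of 20 alternative settings. SDC4, a cell-surface proteoglycan, rose with JQ1 by 0.46 ± 0.06 in wild type and 0.89 ± 0.06 in knockout. It was called lower in knockout DMSO (−0.30 to −0.22 over the alternative settings), a call lost in 5 of 20. Under JQ1 the knockout difference of SDC4 did not pass (0.18, adjusted p = 0.0674). CD83, a surface protein of activated cells, did fall, by 1.16 ± 0.11 and 1.04 ± 0.11 with JQ1. CD83 was also lower in knockout DMSO (−0.46 ± 0.10, adjusted p = 0.0133), a call lost in 3 of 20 alternative settings. In JQ1 its knockout difference did not pass (−0.34 ± 0.12, adjusted p = 0.0992).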

How the data were processed

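RNA-seq was done on rRNA-depleted total RNA with directional libraries, per the labels' protocols. The submitters' processing notes name Trim Galore, cutadapt, FastQC, MultiQC, kallisto, DESeq2 and GRCh38.p10; versions, annotation, use of strand and summing to genes are not given in the sources used here, so genes that overlap, or have an antisense partner or near-identical copy, are uncertain. Values in the main table deposited by the authors are estimated counts per gene symbol, which were rounded here; raw counts had been assumed when the tests were set out. The authors' second deposited table holds a normalized signal, equal to the rounded count divided by a factor for the gene and library; it was used only for an alternative and for those factors.

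Genes were filtered with filterByExpr over the 4 groups, libraries were scaled by TMM (factors 0.926 to 1.06), and 1 quasi-likelihood model of all 12 libraries was fitted in edgeR 4.0.16 (with R 4.3.3 and limma 3.58.1), with Benjamini-Hochberg adjustment over the tested genes and a prior count of 0.125. The SE is the size of the log2 fold change over the root of its F statistic. Depth was 25316565 to 34594025 counts per library. The model was tested on simulated data. Alternatives were other scalings, no filter, DESeq2 1.42.0, the compared groups alone, a replicate block, a threshold of 0.01 and leaving out each library. The members, the gene lists and the markers were chosen with earlier results of these data known. Named besides the members were MAPKAPK2 and, from each pathway list and comparison, at most 3 genes, those of lowest adjusted p below 0.05, plus the gene most like each member in pattern. SOX10, MITF and the other markers come from the marker lists; 1 immune marker of those lists was left out of the sums and is not reported here; CCL2 was named after its values were seen. Positions and 3′ untranslated regions come from GENCODE release 29, promoters from RefSeq.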

Additional observations from a re-analysis of the deposited data

Results flagged for a closer look

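ICAM1 responded more to JQ1 in knockout than in wild-type cells: the difference of the log2 responses was −0.93 ± 0.13 (SE; adjusted p = 0.0149, interaction term of edgeR's quasi-likelihood fit), with JQ1 changes of −2.14 in knockout and −1.21 in wild type, and every JQ1 library below every DMSO library of its genotype. By edgeR 1 of the 22 tested target genes passed this test; DESeq2 called 1 higher and 2 lower of the 15 to which it gave an adjusted p, among them CXCL8 (−1.01, adjusted p = 0.000478) and SDC4 (0.41, adjusted p = 0.000306). CXCL8 passed in 3 and SDC4 in 5 of the 19 alternative settings. The ICAM1 call was lost without the third knockout DMSO library (−0.88, adjusted p = 0.0532), the first wild-type JQ1 library (−0.92, adjusted p = 0.0579) or the second wild-type JQ1 library (−0.87, adjusted p = 0.0569), and at a threshold of 0.01. Without the third knockout JQ1 library the difference was −1.05 (adjusted p = 0.00225), and over the alternatives the adjusted p ran from 1.03e-07 to 0.0579.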

How the results depend on the processing

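Over 20 alternative settings (19 for the interaction), 970 of the values recomputed for the 10 genes kept their side of the threshold, 16 gained a call, 4 lost one, and no call changed sign. With scaling by library totals, which moves the median of all genes by −0.13 (JQ1 in wild type) and −0.12 (JQ1 in knockout), JQ1 in wild type called 6 of the 10 genes, 0 higher and 6 lower (BIRC3, NFKB1, NFKBIA, NFKBIZ, REL and TNFAIP3); over all genes that scaling called 2298 higher and 5368 lower in wild type, and 2409 and 5250 in knockout, in place of 3665 and 3522, and 3616 and 3856. Without the third knockout JQ1 library, JQ1 in wild type called 5 of the 10 genes and the knockout in DMSO 4. Calls over all genes rose too in that fit, to 8455 in place of 7187 and to 2650 in place of 1718. Leaving out each library in turn gave 2 to 5 genes for JQ1 in wild type, 4 to 4 in knockout, 2 to 4 for the knockout in DMSO, 2 to 3 in JQ1, and 0 to 0 for the interaction. Over all genes the JQ1 ranges were 5647 to 8455 in wild type and 6286 to 7481 in knockout, and the other ranges are given below.

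Counts over all genes that moved by more than 1.5 times were, at a threshold of 0.01, 4781 in place of 7187 (JQ1 in wild type), 926 in place of 1718 (knockout in DMSO), 965 in place of 1860 (knockout in JQ1) and 6 in place of 29 (interaction). With only the compared groups fitted they were 2619 and 922 for the knockout in DMSO and JQ1. For the interaction they were 236 without a filter and 154 with DESeq2. Leaving out a library gave 1092 to 2650, 1223 to 2331 and 8 to 88 genes for the knockout in DMSO, the knockout in JQ1 and the interaction. The cause was not tested.

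A fit with the replicate number as a block called 3, 4, 2, 2 and 0 of the 10 genes, as without it. Over all genes that fit called 6789, 7136, 1487, 1569 and 21. Same-numbered libraries did not deviate together: over 18 pairs the correlation ran from −0.115 to 0.0786, and 2 of 12 libraries were most like their own number in another group. Depth limits TNFAIP3 most, with 41 counts in its lowest library.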

Other observations

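The authors' normalized signal divides each count by a factor for the gene and library, and what the factor stands for is not given in the sources used here. Relative to each library's median, the factor of TNFAIP3 was 1.13, 1.11 and 1.07 in wild-type DMSO, 0.994, 1.11 and 1.04 in wild-type JQ1, 0.900, 1.01 and 1.09 in knockout DMSO, and 0.795, 0.894 and 0.937 in knockout JQ1. The TNFAIP3 factor was thus lowest in the group where the gene was lowest, and its spread was wider than that of 93.0% of 24334 genes. REL had factors from 0.902 to 1.13, while those of BIRC3 stayed between 0.989 and 1.01. With these factors in the fit, all 4 TNFAIP3 calls and all 3 BIRC3 calls still passed.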
